A study of Rattus norvegicus with 6 samples.

Results

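Heat shock proteins of the HSP70 and HSP90 families, their stress-inducible partners and the transcription factor HSF1 were followed in rat myocardium after coronary ligation. The 10 genes were chosen by family, as the rows of the deposited table that carry the symbols Hspa1b, Hspa8, Hspa4, Hsph1, Dnajb1, Hsp90aa1, Hsp90ab1, Hspd1, Hspe1 and Hsf1. Each symbol had 1 row among the 32623 genes of the table. All 10 had a mean of at least 0.5 FPKM (fragments per kilobase of transcript, scaled to library size, so that levels can be compared between genes and samples) and were among the 13964 genes tested. Myocardial tissue came from wild-type (WT) rats, described as male, that were anesthetized, ventilated and opened by left thoracotomy. In the 3 ischemia samples the left anterior descending coronary artery had been ligated, with ST-segment elevation as the sign of occlusion, and the 3 sham samples carry the same 30 min label. The labels do not say which part of the heart was taken, give no age or strain, and do not state that each sample came from a separate animal, so p-values measure the spread between these samples. The comparison asked which chaperone transcripts differed in level between ischemia and sham myocardium.

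HSP70 proteins bind exposed hydrophobic stretches of unfolded proteins in an ATP-driven cycle. J-domain proteins such as DNAJB1 deliver clients and start ATP hydrolysis, and HSP110 proteins (HSPH1, HSPA4) exchange the nucleotide so that the client is released. HSP90 acts later, on near-folded clients such as kinases and steroid receptors, and HSP60 with HSP10 (Hspd1, Hspe1) folds proteins inside mitochondria. HSF1 is held inactive by chaperones at rest; when unfolded proteins accumulate it forms trimers, binds heat shock elements and raises transcription of the inducible members. Cells carry paired forms, a constitutive gene (Hspa8, Hsp90ab1) and a more inducible counterpart (Hspa1b, Hsp90aa1).

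Promoter sequence is shown because it carries the letters that HSF1 reads, inverted repeats of a short unit. RefSeq promoter windows (build GRCr8, 250 bases before to 50 after the gene start) were matched by symbol for 7 of the 10 genes, with no entry for Hspa1b, Hsp90aa1 and Hsf1. Windows were searched for GAANNTTC and TTCNNGAA, each of which reads the same on both strands, and overlapping matches were counted as longer runs of units. The 250 bases before the start of 4 genes are given 5′ to 3′ with matching letters in capitals, for Hspa8 (chr8:50080264-50080513, + strand), Hsph1 (chr12:10427118-10427367, + strand), Dnajb1 (chr19:41431142-41431391, - strand) and Hspe1 (chr9:64084077-64084326, + strand).
Hspa8: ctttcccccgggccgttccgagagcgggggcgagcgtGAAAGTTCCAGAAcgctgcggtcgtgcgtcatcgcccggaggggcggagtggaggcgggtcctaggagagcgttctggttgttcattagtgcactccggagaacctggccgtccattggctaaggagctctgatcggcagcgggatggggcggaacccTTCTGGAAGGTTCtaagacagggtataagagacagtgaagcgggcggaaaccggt
Hsph1: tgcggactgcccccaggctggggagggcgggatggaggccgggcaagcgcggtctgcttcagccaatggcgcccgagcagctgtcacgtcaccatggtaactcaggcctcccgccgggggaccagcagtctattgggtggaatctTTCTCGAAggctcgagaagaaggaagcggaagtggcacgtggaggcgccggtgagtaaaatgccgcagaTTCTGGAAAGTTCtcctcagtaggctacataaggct
Dnajb1: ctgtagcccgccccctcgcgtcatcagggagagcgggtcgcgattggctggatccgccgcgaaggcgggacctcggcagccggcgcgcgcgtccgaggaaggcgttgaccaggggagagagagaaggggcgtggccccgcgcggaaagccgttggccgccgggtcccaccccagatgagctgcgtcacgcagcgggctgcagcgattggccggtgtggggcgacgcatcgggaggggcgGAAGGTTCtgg
Hspe1: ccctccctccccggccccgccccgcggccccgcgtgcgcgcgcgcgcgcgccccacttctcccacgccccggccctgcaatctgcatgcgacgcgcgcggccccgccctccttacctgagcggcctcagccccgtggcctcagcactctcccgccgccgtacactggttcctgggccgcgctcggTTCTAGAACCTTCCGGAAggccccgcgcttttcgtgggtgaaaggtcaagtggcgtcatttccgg

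A match was found in 5 of the 7 windows, and 15.9% of all 33469 RefSeq windows held at least 1. Runs of 3 units, as overlapping matches form, were present in 4 of the 7 (Hspa8, Hsph1, Hspd1 and Hspe1) and in 0.798% of all windows. Hspa8 held a run from 213 to 201 bases and another from 55 to 43 bases upstream of its start. Hsph1 held a run from 36 to 24 bases upstream and a separate match from 105 to 98 bases upstream. In Hspd1 and Hspe1, which lie head to head, the windows share 211 bases, and the same run of 4 units (chr9:64084262-64084279) lay 65 to 48 bases upstream of Hspe1 and 242 to 225 bases upstream of Hspd1. Such a run was present in 0.0478% of all windows. Dnajb1 had a match 11 to 4 bases before its start and another 18 to 25 bases after it, not printed above. The windows of Hspa4 and Hsp90ab1 did not hold these letters, which says only that they are not in these windows. In its own build, the deposited table lists Hsph1 and Dnajb1 on the opposite strands.

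**Figure D1:**
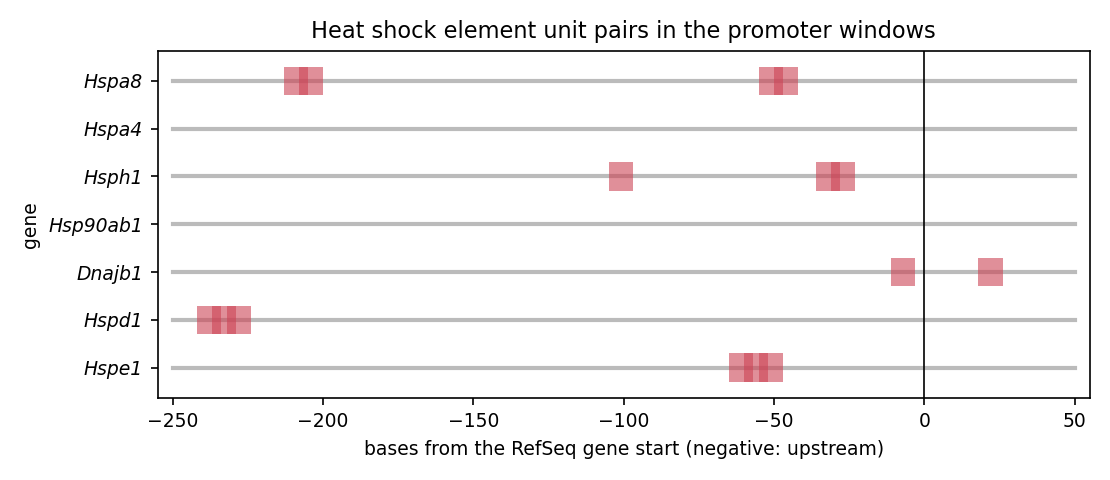
Positions of the searched heat shock element letters (red blocks, darker where matches overlap) along the 300-base promoter windows of 7 chaperone genes; the x axis is the distance in bases from the RefSeq gene start. Hspa8, Hsph1, Hspd1 and Hspe1 carry overlapping matches, and Hspa4 and Hsp90ab1 carry none in this window.

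The 6 libraries held 68529126 to 79591989 counts assigned to genes, of which 15.4% to 21.4% came from the mitochondrial genome. Libraries stood apart in tissue content. The summed FPKM of 6 atrial cardiomyocyte genes was 48350, 218 and 39351 in sham samples 1, 2 and 3 and 9613, 2079 and 1280 in ischemia samples 1, 2 and 3. Neutrophil and monocyte genes (11 found of 12 listed) summed to between 128 and 208 FPKM in sham and to 1297, 8639 and 2031 FPKM in ischemia samples 1, 2 and 3; 9 of the 10 tested were called higher. Their member Retnlg had 0 reads in every sham sample. Genes of the ventricular cardiomyocyte list were present in every library, with sums from 12582 FPKM in ischemia sample 2 to 42188 FPKM in sham sample 2. In sham samples 1 and 3 these sums (26616 and 25102 FPKM) lay below the atrial sums. All ischemia sums of the ventricular list (12582 to 24500 FPKM) lay below all its sham sums (25102 to 42188 FPKM), as did the single levels of Actc1, Ryr2 and Myh6. Genes of the list did not share 1 order: Myl2 was at 366, 2795 and 346 FPKM in sham samples 1, 2 and 3 and at 1315, 594 and 1238 FPKM in ischemia samples 1, 2 and 3, so that sham samples 1 and 3 were its lowest, as they were for Myl3. Lung epithelium genes summed to 411 FPKM in ischemia sample 1, 15.1 FPKM in sham sample 3 and under 1 FPKM in the other samples. The 3 Y-linked genes found gave 26 reads in sham sample 1 and 1772 to 4318 reads in each other library, although the animals are described as male. In bulk tissue, fewer cells of a type and less RNA per cell cannot be told apart.

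The 10 chaperone genes together took 0.211% to 0.337% of all gene counts in sham and 0.36% to 0.658% in ischemia. Their group means were all higher in ischemia, and no gene passed the test. In edgeR's quasi-likelihood test with Benjamini-Hochberg adjustment over all tested genes, 0 of 10 were called higher and 0 of 10 lower at an adjusted p under 0.05, where 5.18% of all tested genes were called higher and 1.53% lower. At an unadjusted p under 0.05, 3 of the 10 were higher (Hspa1b, Hspa8 and Hsp90aa1), beside 18.2% of all tested genes. DESeq2 called 2 of the 10 higher, Hsp90aa1 (adjusted p = 0.00742) and Hspa8 (adjusted p = 0.0176), and gave Hspa1b no adjusted p; it called 14.8% of all tested genes higher and 12.5% lower. limma on log2(FPKM + 0.1) called 0 of the 10 higher or lower, where it called 850 of all 13964 tested genes higher and 262 lower. The median fitted log2 fold change of the 10 genes was 0.57, beside -0.0015 over all genes tested.

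In 5 of the 10 genes (Hspa8, Hsp90aa1, Hsp90ab1, Hspe1 and Hsf1) all ischemia samples lay above all sham samples, a pattern seen in 23.6% of all tested genes. No member had all ischemia samples below sham, against 15% of all tested genes. Ischemia sample 2 was the highest of the 6 samples for 8 of the 10 genes, beside 39.3% of all tested genes. Sham sample 2 was the lowest for 8 of the 10, beside 40.6%. Both held for 7 of the 10, beside 26.9%. Sham sample 2 also had the highest summed ventricular marker level and the lowest atrial sum. That atrial sum was 218 FPKM, against 48350 and 39351 FPKM in sham samples 1 and 3. Ischemia sample 2 had the lowest ventricular sum and the highest neutrophil and monocyte sum. The part of these differences in tissue content in the chaperone levels was not tested.

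**Figure D2:**
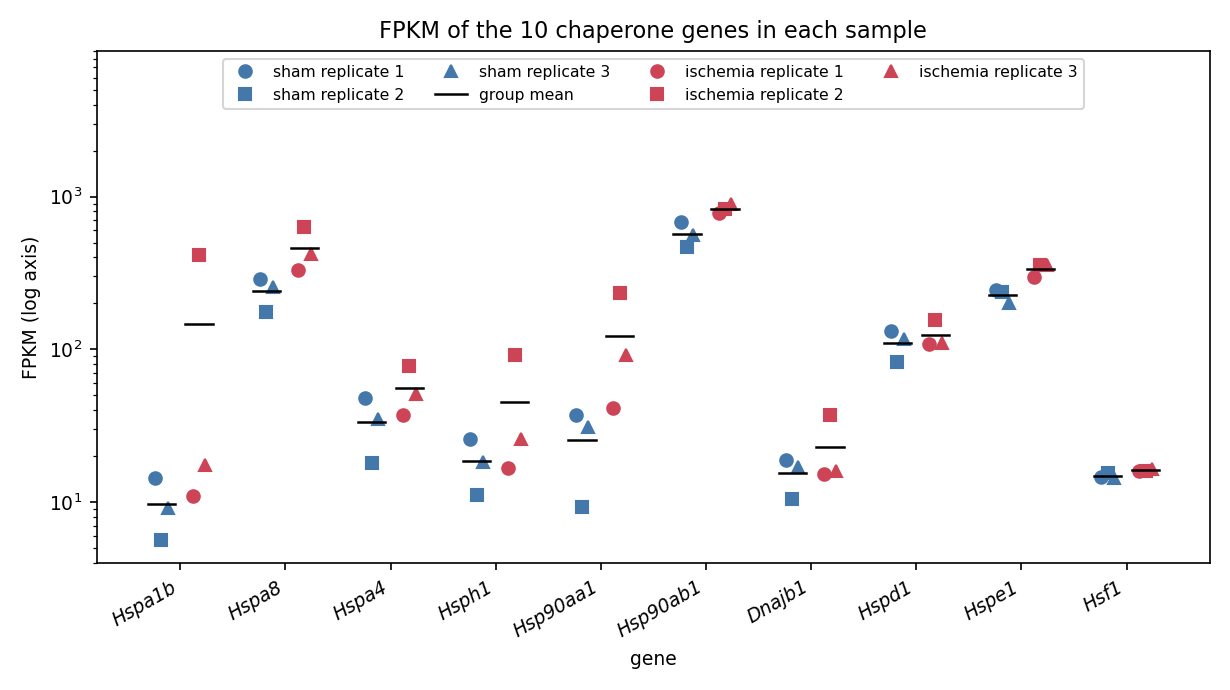
FPKM of the 10 chaperone genes (log axis) in each of 3 sham (blue) and 3 ischemia (red) samples, with marker shape giving the replicate number and black bars the group means. Ischemia sample 2 (red square) is highest for 8 genes, most clearly for Hspa1b at 413 FPKM, and Hsf1 stays between 14.5 and 16.6 FPKM.

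Hsf1, which encodes the master regulator of the heat shock response (listed at chr7:117538523-117565478 on the + strand; the build of the table is not given in the sources used here, and this holds for every gene position that follows), was the steadiest of the 10. Its level was 14.5, 15.6 and 14.5 FPKM in sham samples 1, 2 and 3 and 16.1, 16.0 and 16.6 FPKM in ischemia samples 1, 2 and 3. The groups did not overlap in FPKM, yet the means of 14.9 ± 0.654 and 16.2 ± 0.294 FPKM (SD, n = 3 each) were close. With library scaling by trimmed mean of M-values (TMM), the fitted log2 fold change was 0.03 ± 0.19 (SE), and its sign turned under median-ratio scaling (-0.00055).

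Hspa1b encodes the inducible cytosolic HSP70 (chr20:4877324-4879779, - strand) and had the highest fitted fold change of the 10 genes with all 6 samples. Hsp90aa1 was higher without ischemia replicate 2 (log2 fold change 1.40 against 0.54) and with the replicate block (1.98 against 1.78). Hspa1b was listed at 14.5, 5.69 and 9.20 FPKM in sham samples 1, 2 and 3. Ischemia samples 1, 2 and 3 had 10.9, 413 and 17.5 FPKM. Only ischemia sample 2 was far from the sham range: it carried 76007 of the reads counted on Hspa1b, against 2215 and 3044 in ischemia samples 1 and 3 and 1133 to 2709 in sham. It stood at 42.2 times the sham mean, whereas the other ischemia samples stood at 1.12 and 1.78 times that mean, and ischemia sample 1 lay below sham sample 1. The fitted log2 fold change was 3.76 ± 1.41 (SE; adjusted p = 0.129), which ranked 217th of 13964. In limma the estimate was 2.22 on log2(FPKM + 0.1) and 2.14 on log2(FPKM + 1). Without ischemia replicate 2 it was 0.54 (adjusted p = 0.407). The span of Hspa1b in the table lies inside the listed spans of RT1-CE7, RT1-CE4 and RT1-CE1 on the same strand. Its near-identical neighbor Hspa1a was looked up by symbol and had no row, so the assignment of shared reads is uncertain.

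Hspa8 encodes the constitutive HSC70 (chr8:44990014-44993179, + strand), the more abundant of the HSP70 genes followed here. Levels were 291, 175 and 257 FPKM in sham samples 1, 2 and 3 and 330, 629 and 421 FPKM in ischemia samples 1, 2 and 3. Every ischemia sample was above every sham sample, and the gap between sham sample 1 and ischemia sample 1 was small beside the spread within either group. The means were 241 ± 59.4 and 460 ± 153 FPKM (SD, n = 3 each). The fitted log2 fold change of 0.85 ± 0.28 (SE) missed the threshold in edgeR (adjusted p = 0.0994) and was 0.62 without ischemia replicate 2. Its promoter holds both 3-unit runs printed above. Small nucleolar RNA genes of the SNORD14 family lie within its span and had up to 137 reads.

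The HSP110 genes encode nucleotide exchange factors of HSP70. Hsph1 (chr12:6322668-6341902, - strand), the heat-inducible form, was at 25.9, 11.2 and 18.3 FPKM in sham samples 1, 2 and 3. Ischemia samples 1, 2 and 3 were at 16.8, 92.1 and 26.0 FPKM. Ischemia sample 3 was level with sham sample 1, and only sample 2 stood far above the sham range. Its log2 fold change was 1.18 ± 0.62 (SE; adjusted p = 0.229), and 0.21 without ischemia replicate 2. Hspa4 (chr10:38601624-38642397, - strand) was at 48.1, 18.0 and 35.0 FPKM in sham samples 1, 2 and 3 and at 37.5, 78.3 and 50.7 FPKM in ischemia samples 1, 2 and 3. The groups overlapped for both genes. For Hspa4 the log2 fold change was 0.66 ± 0.36 (SE; adjusted p = 0.249), and it was 0.39 without ischemia replicate 2 and 0.41 without sham replicate 2.

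Dnajb1 (chr19:24747178-24750919, + strand) encodes HSP40, the inducible J-domain partner of HSP70. Its sham levels of 18.9, 10.4 and 16.9 FPKM in samples 1, 2 and 3 bracketed ischemia samples 1 and 3, at 15.4 and 15.9 FPKM. Ischemia sample 2, at 37.2 FPKM, was the only sample above the sham range. The log2 fold change was 0.48 ± 0.35 (SE; adjusted p = 0.371) with all samples and 0.01 without ischemia replicate 2.

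Both cytosolic HSP90 genes had non-overlapping groups. Hsp90aa1 (chr6:135107271-135112775, - strand), the inducible HSP90 alpha, was at 37.0, 9.35 and 30.8 FPKM in sham samples 1, 2 and 3 and at 41.4, 235 and 91.6 FPKM in ischemia samples 1, 2 and 3. The means were 25.7 ± 14.5 and 123 ± 100.4 FPKM (SD, n = 3 each), and the fitted log2 fold change was 2.19 ± 0.70 (SE; adjusted p = 0.0966). Ischemia samples 1 and 3 stood at 1.61 and 3.56 times the sham mean, and both lay above every sham sample. Without ischemia replicate 2 the log2 fold change was 1.40 (adjusted p = 0.194), and without ischemia replicate 1 it was 2.58 and passed the threshold (adjusted p = 0.0399).

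Hsp90ab1 (chr9:17817721-17823243, + strand), the constitutive HSP90 beta, was the most abundant of the 10 genes in both groups. It was at 681, 465 and 559 FPKM in sham samples 1, 2 and 3 and at 778, 834 and 888 FPKM in ischemia samples 1, 2 and 3. The ischemia samples were close to each other (834 ± 55.2 FPKM, SD, n = 3), and the highest was sample 3 rather than sample 2. The log2 fold change was 0.48 ± 0.23 (SE; adjusted p = 0.205), and 0.52 without ischemia replicate 2.

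The mitochondrial chaperonin genes Hspd1 (HSP60; chr9:61680530-61690956, - strand) and Hspe1 (HSP10; chr9:61692154-61694599, + strand) lie head to head with 1197 bases between their listed spans. Hspe1 was at 244, 236 and 201 FPKM in sham samples 1, 2 and 3 and at 299, 357 and 357 FPKM in ischemia samples 1, 2 and 3, with no overlap. Its log2 fold change was 0.47 ± 0.20 (SE; adjusted p = 0.159). Hspd1 was at 133, 82.9 and 116 FPKM in sham samples 1, 2 and 3 and at 108, 156 and 110 FPKM in ischemia samples 1, 2 and 3, and the groups overlapped. Its log2 fold change was 0.09 ± 0.21 (SE; adjusted p = 0.776) and turned to -0.05 without ischemia replicate 2. Both share the run of 4 units described above.

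With 3 samples against 3, a two-sided exact permutation test of mean FPKM cannot give a p below 0.1. It gave 0.1 for the 5 genes whose groups did not overlap, 0.2 for Hspa1b and Hspa4, 0.4 for Hsph1, and 0.6 for Dnajb1 and Hspd1.

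**Figure D3:**
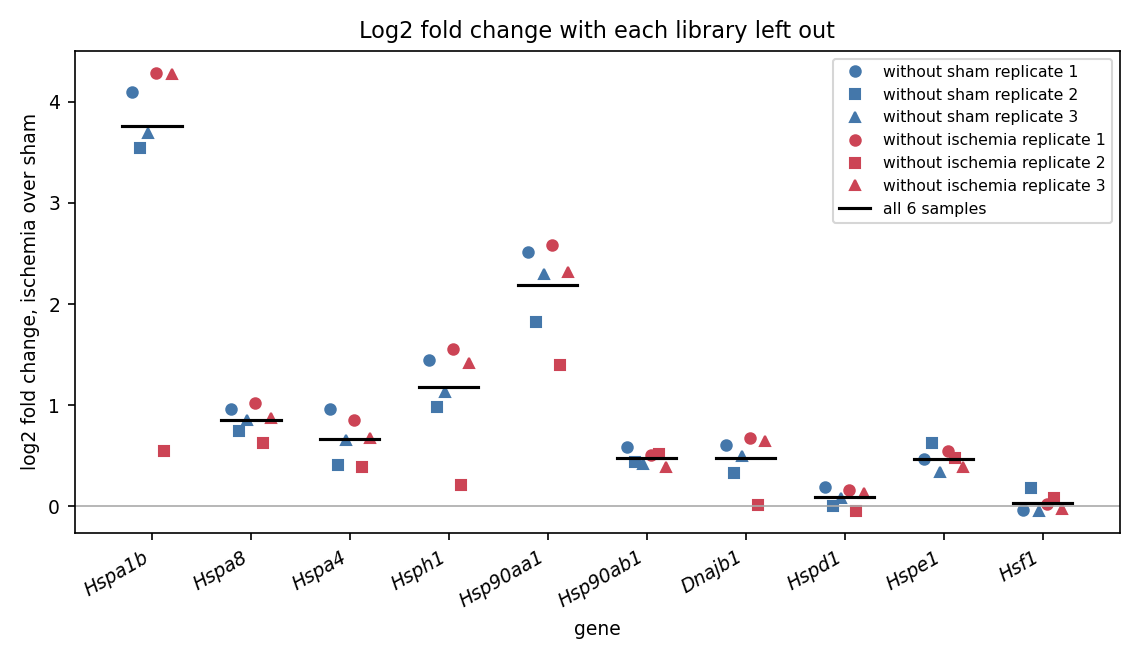
Fitted log2 fold change (ischemia over sham, edgeR) of the 10 genes with all 6 samples (black bars) and with each library left out (points; color gives the group and shape the replicate number of the library removed). Removing ischemia sample 2 (red square) lowers Hspa1b from 3.76 to 0.54 and Hsph1 from 1.18 to 0.21, whereas Hsp90ab1 lies between 0.39 and 0.58 throughout.

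The order of levels, compared per gene length in FPKM, was led by Hsp90ab1 in both groups. In sham it was followed by Hspa8 (241 FPKM), Hspe1 (227 FPKM) and Hspd1 (111 FPKM). Ranges of Hspa8 and Hspe1 overlapped, while Hsp90ab1 stood apart from Hspa8, Hspe1 from Hspd1, and Hspd1 from the rest. The other 6 genes, from Hspa4 (33.7 FPKM) through Hsp90aa1, Hsph1, Dnajb1 and Hsf1 to Hspa1b (9.79 FPKM), overlapped with their neighbors in that order. In ischemia Hspa1b moved from the tenth to the fourth place by its mean of 147 ± 230.1 FPKM (SD, n = 3), which rests on sample 2. All neighbors below Hsp90ab1 overlapped in the ischemia samples.

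Ratios within a sample do not depend on library scaling, and they show how the inducible form stood against its constitutive counterpart. Hspa1b made up 4.74%, 3.14% and 3.45% of the summed Hspa1b and Hspa8 FPKM in sham samples 1, 2 and 3. In ischemia samples 1, 2 and 3 it made up 3.21%, 39.6% and 3.98%. Ischemia samples 1 and 3 were thus within the sham range, and sample 2 was not. Hsp90aa1 made up 5.15%, 1.97% and 5.22% of the summed cytosolic HSP90 FPKM in sham samples 1, 2 and 3 and 5.05%, 22% and 9.35% in ischemia samples 1, 2 and 3. Here samples 2 and 3 exceeded the sham range. Hsph1 made up 34.4% to 38.4% of summed Hsph1 and Hspa4 FPKM in sham, and 30.9%, 54.1% and 33.9% in ischemia samples 1, 2 and 3.

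On the log2 scale, the mean ratio of Hspa1b to Hspa8 was -4.69 ± 0.32 in sham and -3.37 ± 2.40 in ischemia (SD, n = 3 each), a difference of 1.32 (two-sided exact permutation p = 0.6). The ratio of Hsp90aa1 to Hsp90ab1 was -4.67 ± 0.83 in sham and -3.11 ± 1.21 in ischemia, a difference of 1.56 (exact permutation p = 0.3). For Hsph1 to Hspa4 the difference was 0.21 (exact permutation p = 1), and for Hspe1 to Hspd1 it was 0.40 (exact permutation p = 0.3). The 4 ratios were 1 family, in which the lowest Benjamini-Hochberg adjusted value was 0.6, and the smallest p this design allows is 0.1. Without ischemia replicate 2 the differences turned to -0.06 for Hspa1b to Hspa8 and to -0.22 for Hsph1 to Hspa4, and that for Hsp90aa1 to Hsp90ab1 was 0.92.

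**Figure D4:**
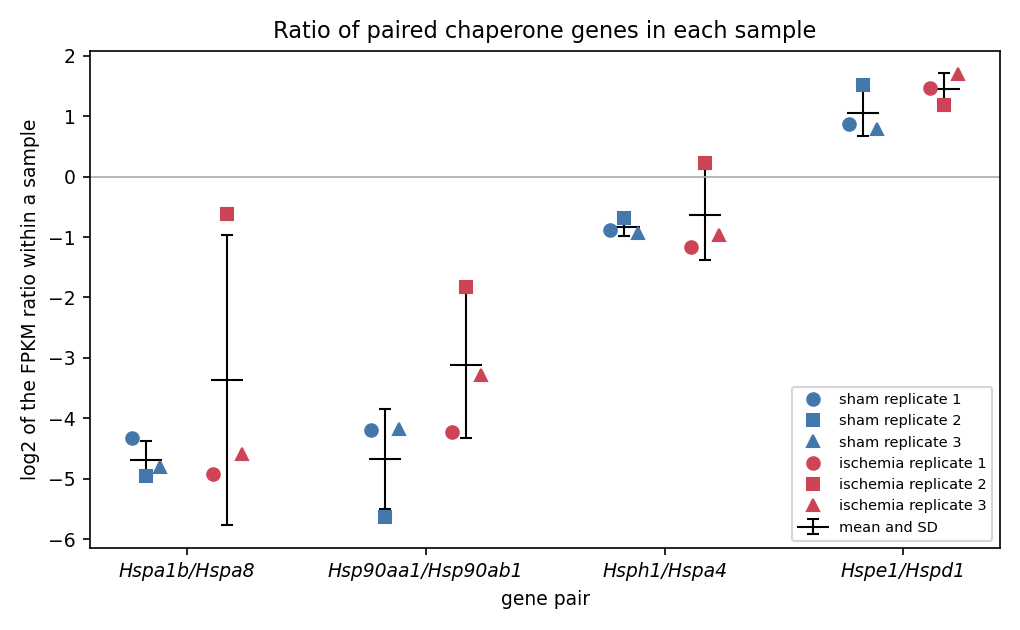
Log2 of the FPKM ratio of 4 chaperone gene pairs within each sham (blue) and ischemia (red) sample; black bars give the group mean and SD (n = 3). Groups overlap for all 4 pairs, and ischemia sample 2 (red square) stands above the other samples for Hspa1b/Hspa8, Hsp90aa1/Hsp90ab1 and Hsph1/Hspa4.

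The wider chaperone network was taken as 53 further genes in 6 roles, of which 52 were found by symbol (all but Hspa1a) and 51 were tested. Among them 1 was called higher (Fkbp5) and 2 were called lower (Dnaja4 and Fkbp4) by edgeR, beside the shares of 5.18% and 1.53% over all tested genes. The median log2 fold change was 0.13, and 31 of the 51 estimates were above 0, beside 6968 of the 13964 over all tested genes. All ischemia samples lay above all sham samples for 11 of the 51 (23.6% of all tested genes), and all below for 6 (15% of all tested genes). Of the 11 above, 8 were HSP90 co-chaperones (15 tested), 2 were HSP70 exchange factors and adaptors (8 tested) and 1 was another HSP70 family gene (7 tested), with 0 of 9 J-domain proteins, 0 of 9 mitochondrial genes and 0 of the 3 genes Hsf2, Hsf4 and Hsbp1. Of the 6 below, 2 were HSP90 co-chaperones, 2 were Hsf4 and Hsbp1, the heat shock factor binding protein, 1 a J-domain protein and 1 another HSP70 family gene.

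Fkbp5 encodes FKBP51, an HSP90 co-chaperone that holds steroid receptors in a low-affinity state and is itself induced by glucocorticoids. Sham samples 1, 2 and 3 had 4.58, 4.75 and 4.04 FPKM, and ischemia samples 1, 2 and 3 had 23.0, 37.5 and 54.7 FPKM. Every ischemia sample exceeded every sham sample several times over, and the highest was sample 3. The log2 fold change was 3.01 ± 0.38 (SE; adjusted p = 0.0272). Fkbp4 encodes FKBP52, the counterpart that favors receptor activity. It fell from 115, 115 and 97.6 FPKM in sham samples 1, 2 and 3 to 52.2, 50.6 and 44.4 FPKM in ischemia samples 1, 2 and 3, with a log2 fold change of -1.26 ± 0.21 (SE; adjusted p = 0.0357). Dnaja4, a type I J-domain protein, fell from 87.1, 64.2 and 61.0 FPKM to 26.0, 18.6 and 21.9 FPKM in the same order (log2 fold change -1.76 ± 0.24, SE; adjusted p = 0.0286). For each of these genes the groups did not overlap. Leaving out any single sham library, or ischemia replicate 3, ended all 3 calls. In each of those settings edgeR called 0 of all tested genes. Leaving out ischemia replicate 2 also ended the call of Fkbp4, while no estimate changed sign.

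No other gene of the network passed the test in edgeR, while DESeq2 called 4 of the 51 higher and 6 lower, beside 14.8% and 12.5% of all tested genes. Among HSP90 co-chaperones the lowest estimate was that of Unc45b, the muscle myosin chaperone, at 65.1, 57.6 and 54.5 FPKM in sham samples 1, 2 and 3 and 33.1, 9.95 and 25.3 FPKM in ischemia samples 1, 2 and 3 (log2 fold change -1.44 ± 0.46, SE; adjusted p = 0.098 in edgeR and 0.0151 in DESeq2). The lowest value was that of ischemia sample 2, and the groups did not overlap. Among J-domain proteins the highest estimate was that of Dnaja1 (log2 fold change 1.18 ± 0.62, SE; adjusted p = 0.229; 0.23 on the log2 scale without ischemia replicate 2), which resembled Hsph1 in being high in ischemia sample 2 alone, at 192 FPKM against 19.5 to 52.4 FPKM in the other 5 samples. Among HSP70 exchange factors and adaptors, Bag1 had the highest log2 fold change (0.67, adjusted p = 0.111) and Stub1, the ubiquitin ligase CHIP, the lowest (-0.22, adjusted p = 0.604). Bag3, which links HSP70 to small heat shock proteins, was at 85.8 to 144 FPKM in sham and 141 to 143 FPKM in ischemia.

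For the remaining HSP70 family the estimates ran from -1.31 for Hspa12a (adjusted p = 0.119 in edgeR, 0.0357 in DESeq2 and 0.0454 in edgeR without ischemia replicate 1) to 0.49 for Hspa14 (adjusted p = 0.148). Mitochondrial chaperones and proteases had the narrowest range of any role, from a log2 fold change of -0.32 for Trap1, the mitochondrial HSP90, to 0.33 for Grpel2, a nucleotide exchange factor of mitochondrial HSP70. Of the other heat shock factors and their binding protein, 3 of the 4 listed were tested, from -0.99 for Hsf4 (adjusted p = 0.222) to 0.09 for Hsf2 (adjusted p = 0.851).

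**Figure D5:**
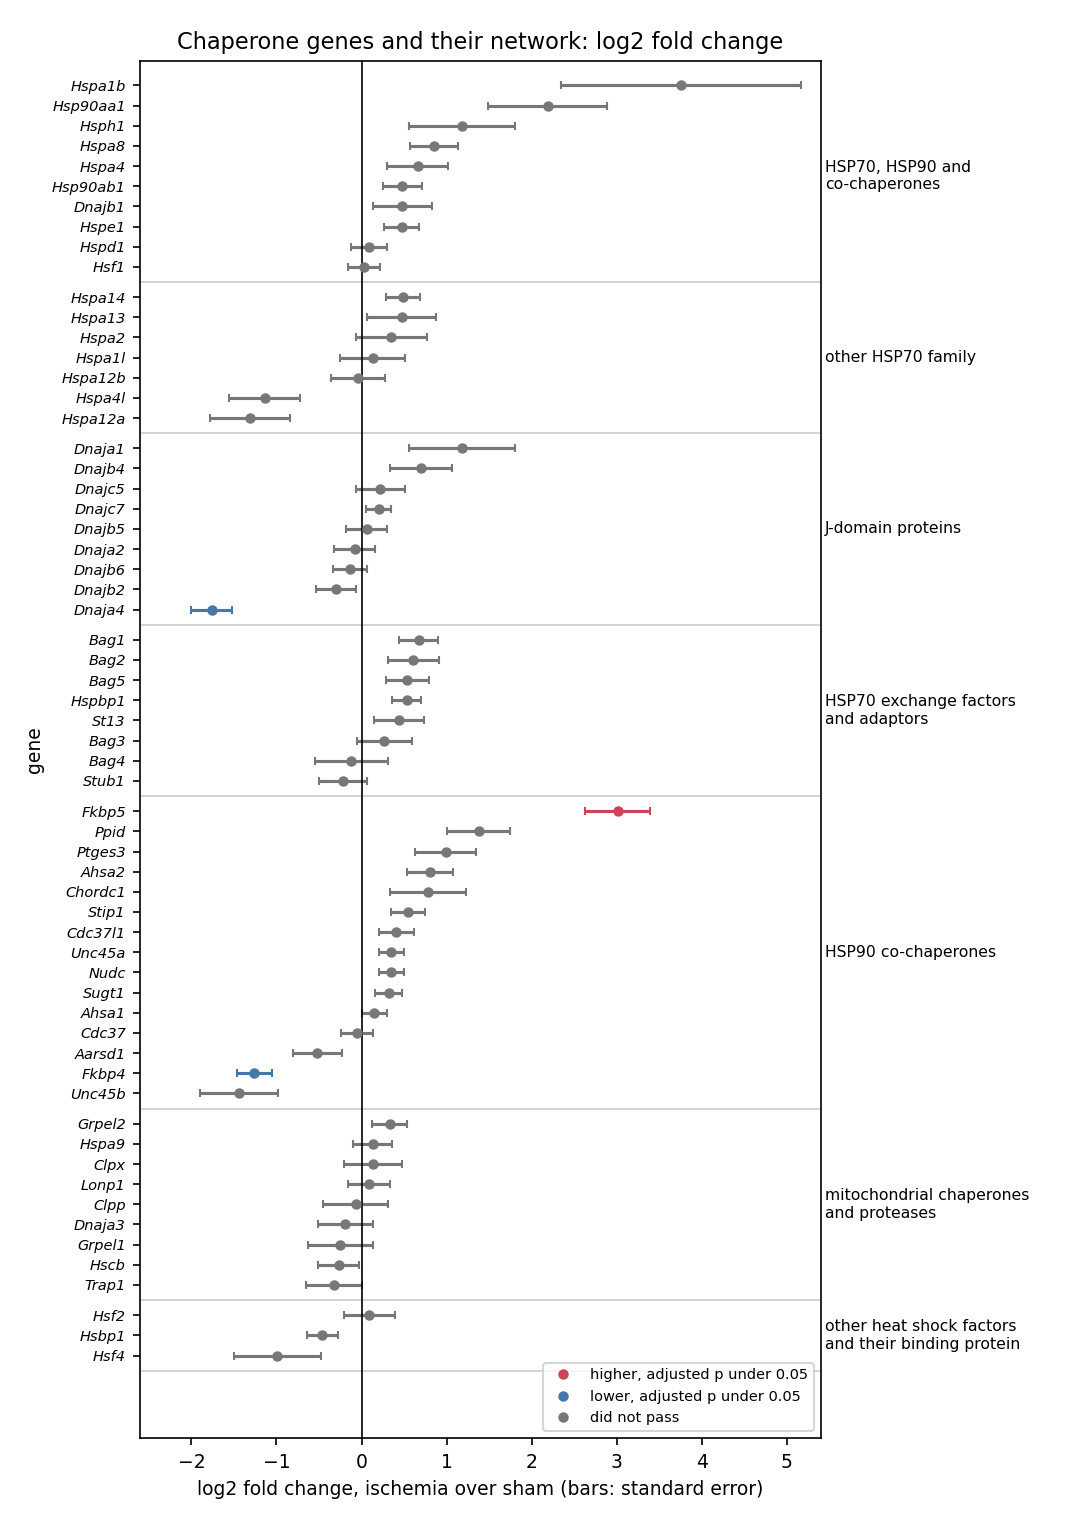
Fitted log2 fold change (ischemia over sham) with its standard error for the 10 chaperone genes and 51 genes of their network, grouped by role; red marks genes called higher and blue marks genes called lower. Hspa1b has the widest bar (3.76 ± 1.41), and the called genes Fkbp5, Fkbp4 and Dnaja4 have bars of 0.21 to 0.38.

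In the RefSeq windows of the network, 44 of the 53 genes were matched. A match was found in 11 of them and a run of 3 units in 2, Dnaja1 and Chordc1. Chordc1 also held a run of 4 units, present in 0.0478% of all windows. The window of Hspa1a held no match. Chordc1, an HSP90 co-chaperone, had a log2 fold change of 0.78 ± 0.45 (SE; adjusted p = 0.263). These shares, 25% and 4.55%, stand beside 15.9% and 0.798% of all windows and are given as a description.

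Likeness to Hspa1b was measured as Pearson's r of log2(FPKM + 0.1) over the 6 samples, as a description with no test. Hspa1b was at 413 FPKM in ischemia sample 2 and at 5.69 to 17.5 FPKM in the other samples. That sample therefore weighs heavily in r. Among the other 9 genes r was highest for Hsph1 (0.98), followed by Dnajb1 (0.94) and Hspa8 (0.88), and lowest for Hsf1 (0.31). Among all tested genes these r values ranked 84th for Hsph1, 429th for Dnajb1, 1419th for Hspa8 and 6921st for Hsf1. Of all tested genes with an assigned symbol, the 5 most alike were Asxl1 and Casp1 (0.998 each), MGC95208 (0.998), Ero1a (0.997) and Itprip (0.996; 1 of the rows with that symbol). Ero1a, the endoplasmic reticulum oxidase, had 108 FPKM in ischemia sample 2 and 6.53 to 11.7 FPKM in the other samples. Casp1, the inflammatory caspase, had 15.5 FPKM there and 3.39 to 5.23 FPKM elsewhere.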

How the data were processed

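Total RNA of rat myocardium was sequenced from libraries of a stranded total RNA kit. The deposited table lists raw counts per gene for each sample, and the submitters' processing notes name STAR and HTSeq; genome build, versions and the strand setting are not given in the sources used here. FPKM values were computed by the authors, who set genes without reads to about 0.0001.

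Samples were grouped by their labels (3 sham, 3 ischemia). Counts were tested with edgeR 4.0.16 (quasi-likelihood, TMM factors, two-sided) in R 4.3.3 over the 13964 genes with a mean of at least 0.5 FPKM, with Benjamini-Hochberg adjustment; standard errors are the log2 fold change over the square root of F. The fit was tested on simulated data. Alternatives were DESeq2 1.42.0, limma 3.58.1 on log2(FPKM + 0.1) or log2(FPKM + 1), other scalings and filters, the replicate block and each library left out. Ratios and single genes used exact permutation tests (scipy 1.17.1). The genes, lists and tests were chosen with earlier results of these data known. All 10 members are named; of the network, every called gene and the highest and lowest estimate of each role; and the 5 genes most like Hspa1b. Chordc1, Bag3 and other genes named outside this rule were chosen after their values were seen. Of the marker lists not described in the report, summed FPKM ranged in sham and ischemia from 170 to 183 and 206 to 210 (endothelial), 344 to 1149 and 179 to 439 (fibroblast), 151 to 514 and 64.6 to 190 (smooth muscle and pericyte), 7.49 to 11.3 and 12.0 to 17.3 (lymphocyte), 4284 to 7861 and 5139 to 9986 (erythroid), and 20.3 to 187 and 0.207 to 18.8 (adipocyte).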

Additional observations from a re-analysis of the deposited data

How the results depend on the processing

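No gene was called higher or lower among the 10 under any scaling or filter, either limma fit, the robust fit or the replicate block; 2 were called higher by DESeq2, and leaving out 1 library gave 0 to 1 (Hsp90aa1 without ischemia replicate 1). Over all genes, 723 higher and 214 lower calls became 2071 and 1742 with DESeq2. Total-count scaling gave 86 lower calls and no expression filter 93. Leaving out 1 library gave 0 to 1490 higher and 0 to 1115 lower calls: 0 without sham replicate 1, 2 or 3 or ischemia replicate 3, 1490 and 1115 without ischemia replicate 1, and 462 and 109 without ischemia replicate 2. Network calls were 4 higher and 6 lower with DESeq2, and 0 to 4 and 0 to 3 with 1 library left out. Leaving out sham replicate 2 and ischemia replicate 2 together, chosen after seeing the data, gave 57 higher and 13 lower over all genes and 0 network calls in either direction; the median of the 10 genes was then 0.29, the lowest of all alternatives. The cause of these differences was not tested.

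The replicate block gave 0 calls over all genes and over the network, and an Hspa1b log2 fold change of 1.78. Same-numbered samples share only a number: the correlations of their deviations from group means ran from -0.192 to -0.061.

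Log2 fold changes changed sign for Hsf1 (-0.00049 with DESeq2, -0.00055 with median-ratio scaling, -0.02 at a mean FPKM of at least 5, down to -0.05 and up to 0.18 with 1 library left out), Hspd1 (-0.05 to 0.19 with 1 library left out), Hsf2 (-0.15 to 0.25) and Trap1 (-0.49 to 0.05). With both replicates 2 left out they were -0.12 for Dnajb1, -0.13 for Hspd1, -0.03 for Dnaja1, -0.27 for Hsf2, 0.15 for Stub1 and 0.23 for Trap1. Leaving out 1 library moved the difference in log2 ratio between -0.06 and 2.09 for Hspa1b to Hspa8 and between -0.22 and 0.47 for Hsph1 to Hspa4. Each of the 10 genes had at least 1133 reads in every library; an effect of depth was not tested.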
